A study of Saccharomyces cerevisiae with 6 samples.

Results

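Cryptic unstable transcripts (CUTs) that were faint in wild-type *RRP4* cells were examined in *rrp4-G226D* cells. The members were chosen by their counts: they are the 426 of 925 CUTs whose mean over the 3 *RRP4* libraries was below 2 CPM (counts per 1000000 of the library total) and whose raw counts, summed over all 6 libraries, were 30 or more. Of the other CUTs, 396 were at 2 CPM or more in *RRP4* cells, and 103 were below 2 CPM but had fewer than 30 counts. The rule reads the counts of both genotypes. Every value that compares the genotypes in these 426 CUTs over all 6 libraries is therefore a description: where edgeR's calls among them are counted, the count tests nothing about the members. The count files name each CUT by a serial number (Xu_2009_CUTs735 is written CUT735 here) and give neither its position nor its length, so levels are reads per region, not per length, and no sequence is shown.

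The study sequenced rRNA-depleted total RNA from haploid *S. cerevisiae* BY4742 cells (*MAT*α *ura3Δ0 leu2Δ0 his3Δ1*, as the labels give them) in which the genomic *RRP4* gene is deleted (*rrp4Δ::NEO*). For this strain the study's strain table also lists *lys2Δ0*. The cells carried either *RRP4-2xMyc* or *rrp4-G226D-2xMyc* on the *LEU2* centromeric plasmid pRS315, as their sole copy of the gene. Both genotypes were grown in minimal medium without leucine at 37°C for 5 h, and 3 biological replicates were sequenced for each. Both groups thus share the deletion, the Myc tag, the plasmid and the temperature, and they differ in the allele, which models a missense change in the human orthologue *EXOSC2*. The RNA comes from whole cultures, so more RNA in each cell and more cells that hold the RNA cannot be told apart.

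CUTs are short noncoding transcripts made by RNA polymerase II, many of them from bidirectional promoters or antisense to genes. Their transcription is ended by the Nrd1-Nab3-Sen1 complex, the TRAMP complex adds a short poly(A) tail, and the helicase Mtr4 in TRAMP feeds them to the nuclear RNA exosome, which degrades them from the 3′ end. Rrp4 is 1 of the cap subunits of the exosome, at the entry for RNA. In wild-type cells most CUTs are removed soon after they are made, and they were catalogued in cells that lack the exosome nuclease Rrp6.

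The libraries held 7663545 to 12181979 counts. Across all libraries, each faint CUT received between 30 and 322 counts, with a median of 100. A library of *RRP4* cells had a median of 8 to 10 counts on a faint CUT, and a library of *rrp4-G226D* cells had 20 to 25. At such counts sampling error is a large part of the spread. The chi-square of the counts per degree of freedom, which is 1 for sampling noise alone, was 1.40 among the *RRP4* and 1.45 among the *rrp4-G226D* libraries for the faint CUTs, against 6.25 and 8.13 for all features with 30 or more counts.

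The faint CUTs as a group were higher in *rrp4-G226D* cells. Their summed level was 444, 441 and 469 CPM in the 3 *RRP4* libraries and 1106, 1023 and 1047 CPM in the 3 *rrp4-G226D* libraries. The groups do not overlap, and each genotype's libraries lie close together. The means were 451 ± 15.5 CPM (SD, n = 3) and 1058 ± 42.8 CPM (SD, n = 3), a ratio of 2.35. The size of this ratio depends on the scaling. With TMM, edgeR's scaling for differences in RNA composition, the factors were 0.821 to 0.881 for *RRP4* and 1.16 to 1.19 for *rrp4-G226D* libraries. On that scale the summed levels were 528 ± 15.8 and 905 ± 47.7 (SD, n = 3), a ratio of 1.71.

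**Figure D1:**
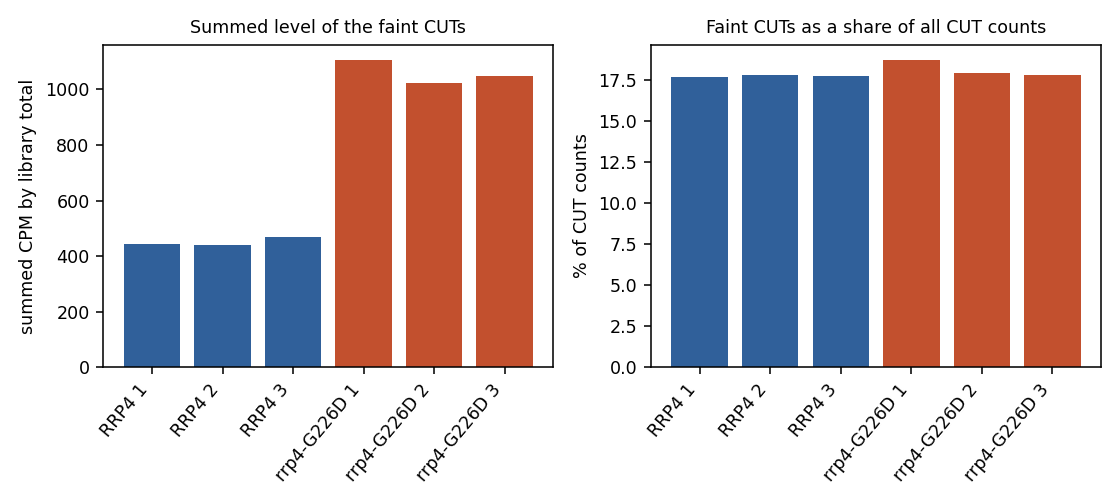
Left, summed level in CPM of the faint CUTs in each library (1 bar per library, axis from 0; *RRP4* blue, *rrp4-G226D* red). Right, the percentage of all CUT counts that fell on the faint CUTs. The sums are 441 to 469 CPM in *RRP4* and 1023 to 1106 CPM in *rrp4-G226D*, whereas the share of CUT counts lies between 17.7% and 18.7% in all 6 libraries.

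Within the CUT class the faint members kept their share. Of all CUT counts, 17.7% ± 0.0745 fell on them in *RRP4* cells and 18.2% ± 0.50 in *rrp4-G226D* cells (SD, n = 3). The highest share, 18.7%, was in *rrp4-G226D* replicate 1, and the other libraries of that genotype were at 17.9% and 17.8%. Over the same libraries, the 396 CUTs at 2 CPM or more in *RRP4* cells went from 2073 ± 70.4 to 4739 ± 68.7 CPM (SD, n = 3), a ratio of 2.29.

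In CPM by library total, 228 of the 426 faint CUTs (53.5%) had a mean of 2 CPM or more in *rrp4-G226D* libraries. A mean of 5 CPM or more was found for 33. The rule holds every *RRP4* mean below 2 CPM, so a member could cross that level only upward. These counts are a description. With scaling by library size only, the fitted features as a whole were also shifted up, with a median of 0.46 in log2 units. In the TMM-scaled fit described below, 139 of the 228 were called higher, where 12.3% of all features were. Another 10 of the 228 had a log2 fold change below 0 in that fit. Library by library, 110 CUTs were below 2 CPM in every *RRP4* library and at 2 CPM or more in every *rrp4-G226D* library. No share over all features was computed for the 228, the 33 or the 110, so nothing is read from them. The other 198 of the 426 had a mean below 2 CPM in both genotypes. The median level over the 426 was 0.998 CPM in *RRP4* and 2.12 CPM in *rrp4-G226D*, with the middle 50% between 0.664 and 1.45 CPM and between 1.30 and 3.17 CPM. The mean CPM was higher in *rrp4-G226D* for 411 CUTs and lower for 15. For 256 CUTs it was at least 2 times as high, and for 38 at least 4 times. In the TMM-scaled fit described below, 132 had a log2 fold change of 1 or more, and 10 had 2 or more. Those are fitted values and not ratios of means, so the measure differs as well as the scale.

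Few of these CUTs were wholly silent in *RRP4* cells. None had 0 counts in all 3 *RRP4* libraries, 10 had 0 counts in at least 1 of them, and none had 0 counts in any *rrp4-G226D* library. The lowest *RRP4* sum was 4 counts over the 3 libraries. These CUTs were thus faint but detected, and a CUT with no *RRP4* counts at all could enter only with 30 counts in *rrp4-G226D*, which none reached.

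**Figure D2:**
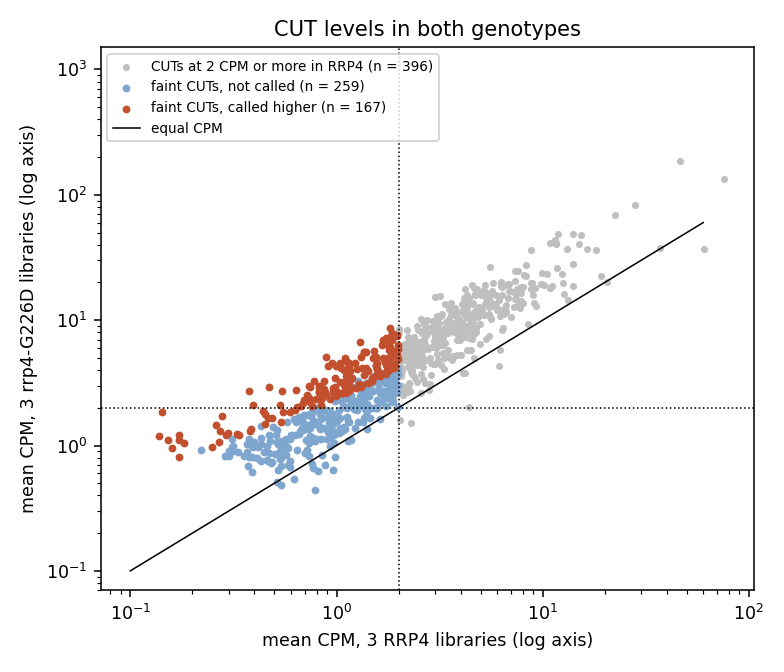
Mean level of each CUT in the 3 *RRP4* libraries (horizontal) against the 3 *rrp4-G226D* libraries (vertical), both in CPM on log axes. Dotted lines mark 2 CPM, the solid line marks equal CPM, blue and red points are the 426 faint CUTs (red, the 167 called higher), and grey points are the 396 CUTs at 2 CPM or more in *RRP4*. Most faint CUTs lie above the line of equal CPM, and 228 lie above 2 CPM in *rrp4-G226D*.

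The log2 fold changes below were fitted with edgeR's quasi-likelihood model on TMM scaling, over all 7967 features with 30 or more summed counts. All 426 faint CUTs are in this fit. Their median log2 fold change was 0.70, with quartiles 0.28 and 1.11, and 366 were above 0 and 60 below. At an adjusted p below 0.05 and at least 1.5-fold, 167 faint CUTs (39.2%) were called higher, where 12.3% of all features were. None of the 426 was called lower by edgeR, where 11.1% of all features were. At an unadjusted p below 0.05 the number at least 1.5-fold lower was also 0, and DESeq2 called 0 lower. As the rule used this contrast, nothing is read from these shares. In TMM-scaled CPM, every *rrp4-G226D* library exceeded every *RRP4* library for 200 faint CUTs, an order found in 30.2% of all features. The reverse order was found for 1 faint CUT and for 31.8% of all features. That CUT, CUT617, was singled out after its values were seen. Its TMM-scaled CPM was 2.18, 2.18 and 2.22 in *RRP4* and 2.12, 1.61 and 2.06 in *rrp4-G226D* libraries, so the highest *rrp4-G226D* library lay just under the lowest *RRP4* library, while in CPM by library total its groups overlap.

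Part of the upward shift is built into the rule. A CUT with 14 or fewer counts over the *RRP4* libraries reaches 30 counts in all only if its CPM, pooled over the libraries of a genotype, is higher in *rrp4-G226D*. This holds for 69 of the 426. The other 357 are not free of the rule, since the *RRP4* limit and the floor over both genotypes chose them too. Their median log2 fold change was 0.66, and 298 were above 0. Of the 357, 140 were called higher, where 12.3% of all features were, and nothing is read from this count. In the faintest range, below 0.5 CPM in *RRP4*, the 63 CUTs had a median of 1.16. It was 0.54 in the 151 CUTs from 0.5 to 1 CPM, 0.67 in the 113 from 1 to 1.5 CPM, and 0.70 in the 99 from 1.5 to 2 CPM. Over the limit, the 217 CUTs from 2 to 4 CPM had a median of 0.76, the 133 from 4 to 8 CPM 0.75 and the 46 at 8 CPM or more 0.62. Apart from the faintest range, where the floor of 30 counts acts most, the medians thus lay between 0.54 and 0.76.

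The limits of the rule cut through a continuous range of levels. Just inside, CUT468 was at 1.99 CPM in *RRP4* and 2.04 in *rrp4-G226D* cells, CUT571 at 1.99 and 4.86, and CUT798 at 1.98 and 5.91. Just outside, CUT568 was at 2.00 and 6.23 CPM, CUT296 at 2.01 and 7.997, and CUT23 at 2.01 and 8.44. At the floor of 30 counts, CUT771 had 5 summed counts for *RRP4* and 25 for *rrp4-G226D*, CUT227 had 16 and 15, and CUT542 had 11 and 20. Just outside, each with 29 counts in all, CUT65 had 11 and 18, CUT70 had 7 and 22, and CUT121 had 14 and 15. At both limits the members just inside include CUTs with clearly more counts in *rrp4-G226D* and CUTs with nearly equal counts.

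The highest of the faint CUTs in *rrp4-G226D* cells was CUT735. It had 16, 19 and 16 raw counts in the *RRP4* libraries and 78, 89 and 104 in the *rrp4-G226D* libraries. In CPM these are 1.59, 1.79 and 2.09 against 8.33, 8.99 and 8.54. The 3 *rrp4-G226D* libraries nearly coincide once depth is taken into account, and the groups are far apart. The log2 fold change of CUT735 was 1.80 (standard error 0.21).

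CUT428 followed, with 17, 16 and 18 counts against 82, 62 and 107 in the mutant libraries, a log2 fold change of 1.68 (standard error 0.24). CUT865 had 20, 15 and 19 against 72, 70 and 96 counts, a change of 1.52 (standard error 0.23). CUT537 had 16, 15 and 22 against 64, 77 and 96 counts, a change of 1.54 (standard error 0.24). In each of these the lowest *rrp4-G226D* library had more than 2 times the counts of the highest *RRP4* library. CUT132 (17, 19 and 15 against 63, 76 and 94 counts) and CUT504 (18, 20 and 12 against 68, 73 and 85 counts) had changes of 1.58 and 1.57. CUT504 was the steadiest of the 10 highest, with a coefficient of variation of CPM over the *rrp4-G226D* libraries of 2.85%.

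CUT867 and CUT782 spread most among the 10 highest, with coefficients of variation of 24.4% and 27.7%. CUT867 had 10, 18 and 18 against 71, 50 and 101 counts. CUT782 had 9, 14 and 13 against 82, 56 and 67 counts, and its change of 1.90 (standard error 0.29) was the largest of the 10. In CPM, CUT782 stood at 8.76 in *rrp4-G226D* replicate 1 and at 5.66 and 5.50 in the other replicates. CUT793 (15, 20 and 17 against 69, 63 and 87 counts) and CUT395 (25, 12 and 12 against 63, 70 and 78 counts) had changes of 1.46 and 1.496. Apart from CUT782 at 1.30 CPM, the 10 lay close under the upper limit of the rule in *RRP4* cells, between 1.68 and 1.96 CPM. In *rrp4-G226D* cells all 10 were between 6.64 and 8.62 CPM.

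**Figure D3:**
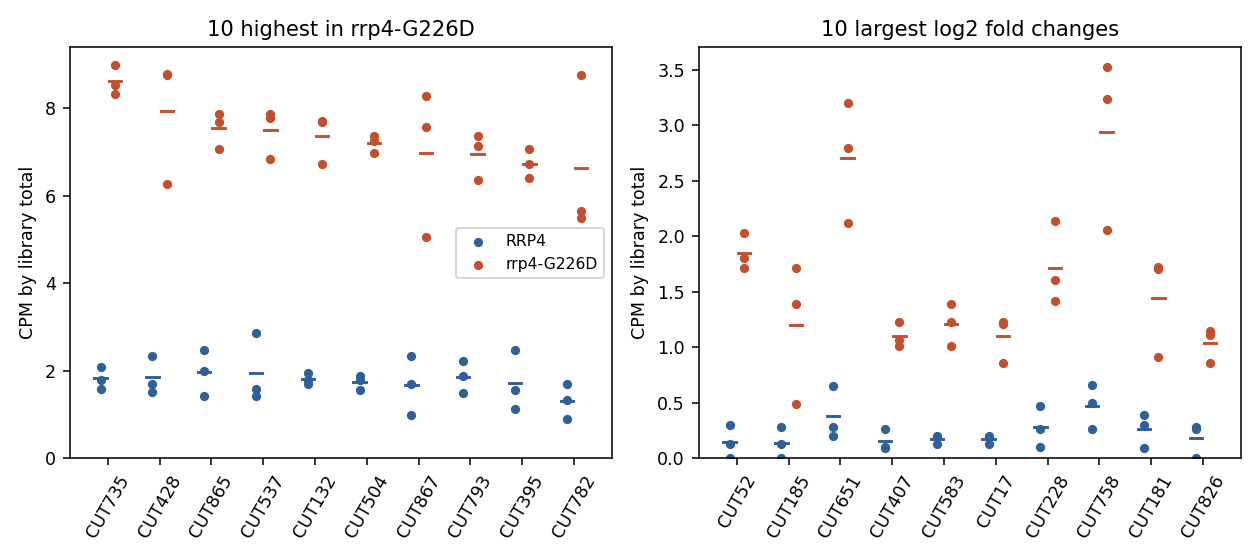
Level in CPM of single CUTs in every library (points, 3 per genotype; short lines are the means; *RRP4* blue, *rrp4-G226D* red; axes from 0). Left, the 10 faint CUTs with the highest mean in *rrp4-G226D*, whose means lie between 6.64 and 8.62 CPM; right, the 10 with the largest log2 fold change, whose *RRP4* means lie between 0.138 and 0.473 CPM. In all 20 the genotypes do not overlap, but they were picked for high *rrp4-G226D* levels or large changes, so nothing is read from this. The right 10 were also taken only from CUTs whose libraries do not overlap in TMM-scaled CPM.

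The largest log2 fold changes belonged to other CUTs, nearly silent in *RRP4* cells. CUT52 had 3, 0 and 1 counts in the *RRP4* libraries and 19, 17 and 22 in the *rrp4-G226D* libraries. Its mean went from 0.143 to 1.85 CPM, and its log2 fold change of 3.16 (standard error 0.60) was the largest of the 426. The *RRP4* level of CUT52 rests on 4 reads, so the size of the change is uncertain. Every *rrp4-G226D* library held more than 5 times the counts of any *RRP4* library. As CUT52 was picked by this contrast, nothing is read from that separation.

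CUT651 and CUT758 went from a low mean to one above 2 CPM. CUT651 had 2, 3 and 5 against 30, 21 and 34 counts, a change of 2.44 (standard error 0.44). CUT758 had 5, 7 and 2 against 33, 32 and 25 counts, a change of 2.07 (standard error 0.41). In CPM, CUT758 was at 3.53, 3.23 and 2.05 in the *rrp4-G226D* replicates, so the deepest library gave its lowest level.

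The remaining 7 of the 10 largest changes had means below 2 CPM in both genotypes. CUT185 had 0, 3 and 1 against 13, 17 and 6 counts, a change of 2.49 (standard error 0.76). CUT407 had 1, 1 and 2 against 10, 10 and 15 counts, a change of 2.43 (standard error 0.62), and CUT583 had 2, 2 and 1 against 13, 10 and 15 counts, a change of 2.26 (standard error 0.57). CUT185 varied most of these, with CPM of 1.39, 1.72 and 0.493 in the *rrp4-G226D* replicates, while CUT407 stayed between 1.01 and 1.23. CUT17, CUT228, CUT181 and CUT826 had changes of 2.13, 2.13, 2.06 and 2.05. Their *RRP4* sums were 5, 8, 7 and 5 counts, and their *rrp4-G226D* sums were 35, 55, 46 and 33 counts. All 10 are among the 69 CUTs whose pooled CPM the floor of 30 counts fixes to be higher in *rrp4-G226D*.

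Not every faint CUT was higher in *rrp4-G226D*. The lowest log2 fold changes were those of CUT283 and CUT245, the only members at −1 or less. CUT283 had 13, 3 and 6 against 6, 1 and 7 counts, a value of −1.24 (standard error 0.63). CUT245 had 15, 5 and 7 against 8, 3 and 9 counts, a value of −1.03 (standard error 0.52). In both, *RRP4* replicate 1 was the highest library, and the groups overlap.

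CUT861 (8, 5 and 9 against 12, 1 and 6 counts), CUT7 (4, 10 and 10 against 6, 8 and 8 counts) and CUT14 (10, 7 and 10 against 11, 5 and 9 counts) had values of −0.80, −0.72 and −0.71. The groups overlap in each of them too, and none was called. The means of all 5 were below 1 CPM in both genotypes. None of the 5 was therefore detectably lower at this depth with all 6 libraries. Without *RRP4* replicate 2, edgeR called CUT245 (−1.40) and CUT283 (−1.70) lower, and without *rrp4-G226D* replicate 1 it called CUT861 (−1.72) lower.

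Among CUTs with a mean above 2 CPM, some differed between the *rrp4-G226D* libraries. CUT221 had 26, 41 and 18 counts in the *rrp4-G226D* libraries, or 2.78, 4.14 and 1.48 CPM, a coefficient of variation of 47.6%. CUT244 had 39, 18 and 26 counts (4.17, 1.82 and 2.13 CPM; 47.1%) and CUT786 had 56, 28 and 35 counts (5.98, 2.83 and 2.87 CPM; 46.4%). The high library was replicate 2 for CUT221 and replicate 1 for CUT244 and CUT786. Over all faint CUTs the median coefficient of variation was 20.7%. CUT786 still separated the genotypes, with 11, 13 and 9 counts in *RRP4*, whereas CUT221, with 13, 14 and 17, did not.

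Levels of the faint CUTs correlated more closely between *rrp4-G226D* libraries than between *RRP4* libraries. Pearson's r of log2 levels across the 426 CUTs was 0.840 to 0.846 between *rrp4-G226D* libraries, 0.575 to 0.597 between *RRP4* libraries, and 0.545 to 0.660 between libraries of different genotypes. These values were computed on log2(TMM-scaled CPM + 0.5). They describe the libraries, since CUTs share a library and its depth, and the rule restricts the *RRP4* range and leaves the *rrp4-G226D* range wider. The *RRP4* libraries also had fewer counts on a faint CUT (medians of 8 to 10 against 20 to 25). The order of the correlations is therefore not read as a difference in how alike the replicates are.

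To measure the contrast in libraries that did not choose the CUTs, the choice was repeated in the 2 libraries of 1 replicate number, and the fold changes were fitted in the other 4. A CUT was chosen if it was below 2 CPM in that *RRP4* library and had at least 10 counts over both. In the 3 rounds this took 434, 437 and 426 CUTs, of which 392, 393 and 378 are among the 426. Of those chosen, 374, 383 and 358 had the 30 counts in the other libraries that the fit required. A CUT with few *RRP4* counts passes that floor only through its *rrp4-G226D* level, so the fits were also made with no floor in the 4 measured libraries, where all chosen CUTs enter. That setting was added after seeing the data.

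With no floor, the chosen CUTs had a median log2 fold change of 0.68, 0.74 and 0.67 in the 3 rounds, and 364 of 434, 373 of 437 and 350 of 426 were above 0. With edgeR's quasi-likelihood test 106, 119 and 118 of them were called higher (24.4%, 27.2% and 27.7%), where 10.6%, 10.3% and 10.2% of all features were. Called lower were 0, 1 and 1, where 10.7%, 9.54% and 9.50% of all features were, and at an unadjusted p below 0.05 the numbers at least 1.5-fold lower were 0, 1 and 3. Most chosen CUTs were thus above 0 in libraries that neither chose nor filtered them.

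With the floor of 30 counts, which part of the chosen CUTs could pass only through *rrp4-G226D*, the values differed little. The median log2 fold change was 0.70, 0.74 and 0.69, while that of all features lay between 0.00109 and 0.00939. Values above 0 were found for 321 of 374, 331 of 383 and 306 of 358 chosen CUTs. By edgeR, 104, 114 and 119 of them were called higher (27.8%, 29.8% and 33.2%), where 11.6%, 11.2% and 11.3% of all features were. Called lower were 0, 1 and 1, where 11.9%, 10.6% and 10.6% of all features were, and at an unadjusted p below 0.05 the numbers at least 1.5-fold lower were 0, 1 and 3. Those called lower, CUT305 and CUT327, are named after their values were seen, and neither is among the 426. The rounds share libraries and are not independent of each other.

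**Figure D4:**
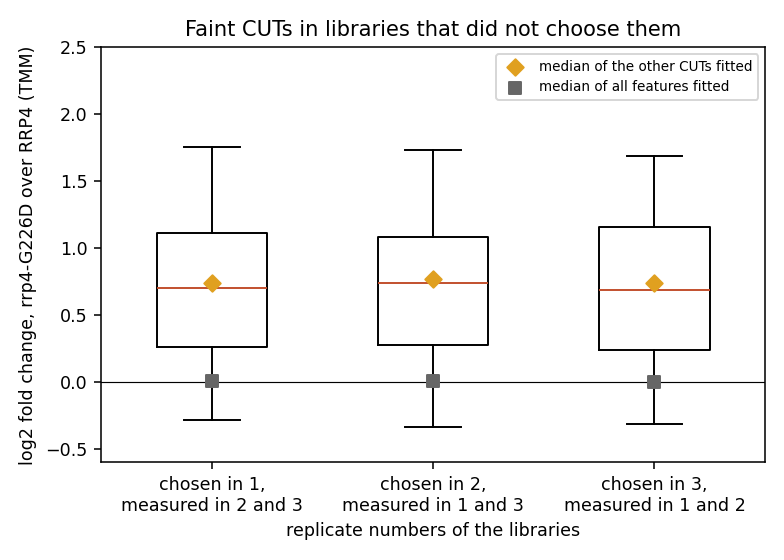
Log2 fold changes of faint CUTs chosen in the libraries of 1 replicate number and measured in the other 4 libraries, 1 box per round (box, quartiles; red line, median; whiskers, 5% and 95% points). The medians are 0.70, 0.74 and 0.69, close to those of the fitted CUTs not chosen in that round (diamonds, 0.74 to 0.77). They lie above those of all features (squares, at most 0.00939).

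By this measure the faint CUTs and the more abundant CUTs had nearly the same median. The other CUTs fitted in the 3 rounds numbered 394, 385 and 406 and had medians of 0.74, 0.77 and 0.74. Called higher were 60.9%, 60.5% and 59.4% of them. Counts were compared only for the sets of the rule over the 6 libraries. There a faint CUT had a median of 100 counts and a median standard error of 0.37. A CUT at 2 CPM or more in *RRP4* had 379 counts and 0.20. The part of depth in the share of calls was not tested, nor was the difference between the medians.

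Individual CUTs could be followed through the rounds. Of the chosen CUTs, 274 members of the 426 were chosen and fitted in all 3 rounds. Their log2 fold change was above 0 in every round for 219 and below 0 in every round for 8. In edgeR's test, 47 were called higher in all 3 rounds, 26 in 2, 50 in 1 and 151 in none, where 8.14%, 2.77%, 4.28% and 84.8% of the features fitted in all 3 rounds were. Being chosen in all 3 rounds uses the counts of all 6 libraries, so no library was held out for these 274. The numbers are a description, under the floor of 30 counts, and nothing is read from them.

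Other RNA classes were taken by the same rule for comparison, so their fold changes too were used in choosing them, and their values and calls are a description. Stable unannotated transcripts (SUTs) are noncoding transcripts first catalogued in wild-type cells, and 175 of 847 were below 2 CPM in *RRP4* with 30 or more counts. Their median log2 fold change was 0.37, with 37 (21.1%) called higher, where 28.2% of all SUTs and 12.3% of all features were. Of 6713 open reading frames (ORFs), 459 met the rule, with a median of 0.39, 103 (22.4%) called higher and 12 lower, where 5.3% of all ORFs were called higher. The medians of all SUTs and all ORFs fitted were 0.37 and −0.07. As the rule itself favours higher *rrp4-G226D* levels, nothing is read from the order of the classes here.

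In libraries that did not choose the features, with the floor of 30 counts, the CUTs had the highest median of the 3 classes in each round. The medians were 0.70, 0.74 and 0.69 for CUTs, 0.31, 0.40 and 0.28 for SUTs, and 0.39, 0.52 and 0.46 for ORFs. The shares called higher were 27.8%, 29.8% and 33.2% of CUTs, 16.3%, 18.6% and 16.6% of SUTs, and 20.3%, 21.2% and 22.6% of ORFs. The floor acts on all 3 classes, and the difference between them was not tested, since transcripts are not replicates.

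**Figure D5:**
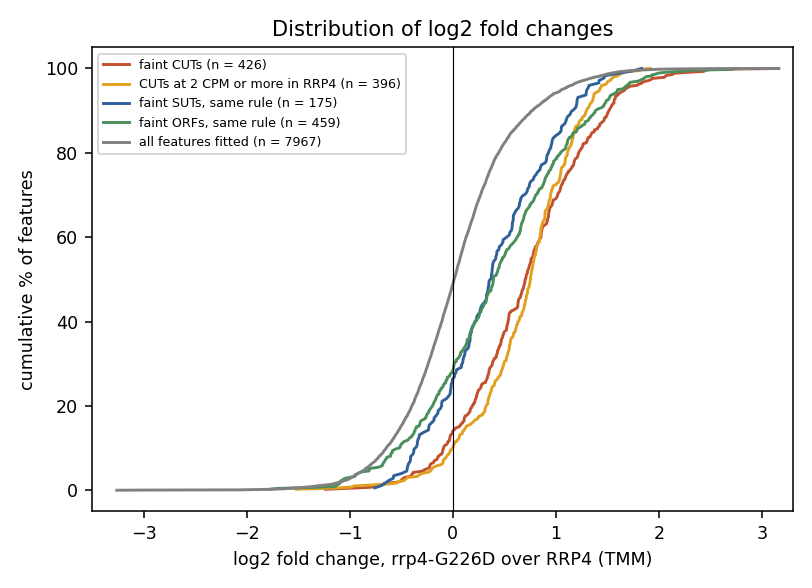
Cumulative percentage of features by log2 fold change (*rrp4-G226D* over *RRP4*, TMM scaling) in 5 groups that overlap in part. Around the medians, the curves of the faint CUTs (median 0.70) and of the CUTs at 2 CPM or more (median 0.75) lie to the right of those of the faint SUTs (0.37), the faint ORFs (0.39) and all features (0.01).

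Of the 21 genes that encode the exosome, its nuclear cofactors, TRAMP and the Nrd1-Nab3-Sen1 complex, 3 (14.3%) were called higher, close to the 12.3% of all features, and 0 lower by edgeR, 0 also at an unadjusted p below 0.05 and 1.5-fold, and the median log2 fold change of the 21 was 0.06. *RRP4* itself (YHR069C, chromosome VIII) went from 170 ± 7.10 to 293 ± 9.77 TMM-scaled CPM (SD, n = 3), which edgeR fitted as 0.79 on the log2 scale with a standard error of 0.059 (adjusted p = 2.12e-09). The genomic *RRP4* gene is deleted in both genotypes, so these reads come from the plasmid, and the counts do not tell the alleles apart. *NRD1* (YNL251C, chromosome XIV) and *NAB3* (YPL190C, chromosome XVI), which encode the RNA-binding proteins of that complex, stood 0.90 ± 0.067 and 0.68 ± 0.066 higher on the same scale (± standard error; edgeR's adjusted p = 1.97e-09 and 6.39e-08). *SEN1* (YLR430W, chromosome XII), the helicase gene of the same complex and named after its values were seen, stood at 0.58 ± 0.058 (edgeR's adjusted p = 7.62e-08), just short of 1.5-fold.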

How the data were processed

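RNA was sequenced from 3 biological replicates of each genotype. Per the labels and the study's methods, the authors made rRNA-depleted, stranded paired-end libraries, demultiplexed them with bcl2fastq 2.17, aligned reads with STAR to the R64-1-1 yeast genome annotated with CUTs and SUTs, and deposited raw counts per feature from featureCounts 1.6.4. The strand setting and the treatment of reads with several alignments are not given in the sources used here, so reads of overlapping antisense features may not be separated. A table of the authors' own comparison (DESeq2 mean normalized counts, fold changes and p-values) was not used.

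Features with 30 or more summed counts were fitted with edgeR 4.0.16 (R 4.3.3; TMM, quasi-likelihood test, genotype as the only term), with Benjamini-Hochberg adjustment over all 7967. A call needs an adjusted p below 0.05 and 1.5-fold. This filter does not look at genotype. CPM is the count per 1000000 of the library total; fold changes use TMM. DESeq2 1.42.0, other scalings and filters, other limits of the rule, a replicate block and each library left out were alternatives. The code was tested on simulated data. The members, lists and tests were chosen with earlier results of these data known. Named CUTs are the 10 highest in *rrp4-G226D*, the 10 largest and the 5 lowest fold changes. The 10 largest were taken among members whose *rrp4-G226D* libraries all lay above the *RRP4* libraries in TMM-scaled CPM. Also named are the 3 on each side of each limit and the 3 most variable above 2 CPM. Listed decay genes are named when called. Gene symbols come from RefSeq (21 of 21 matched). Totals of 7663545 to 12181979 counts limit the precision for CUTs with few counts. In an exact permutation test, 3 against 3 libraries cannot go below p = 0.1 (two-sided).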

Additional observations from a re-analysis of the deposited data

Results flagged for a closer look

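The 103 CUTs below 2 CPM in *RRP4* with fewer than 30 counts, which the rule leaves out, had more reads per library total in *rrp4-G226D*, but not clearly so after TMM scaling. Their summed level was 16.3, 17.9 and 23.6 CPM in the *RRP4* libraries and 32.3, 24.0 and 30.4 CPM in the *rrp4-G226D* libraries, with means of 19.3 ± 3.84 and 28.9 ± 4.30 CPM (SD, n = 3). The ratio of the means was 1.499, and the lowest *rrp4-G226D* library, replicate 2, lay just above the highest *RRP4* library, replicate 3. On TMM-scaled CPM the sums were 19.9, 20.7 and 26.8 against 27.8, 20.2 and 26.3, so the groups overlap and the ratio was 1.10. They drew attention as a signal in CUTs that the rule leaves out, of which the report uses 3 as examples at its limit and the sum in the total of CUT counts. The sums rest on 164 to 190 counts per library in *RRP4* and 238 to 370 in *rrp4-G226D*, and the difference was not tested.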

How the results depend on the processing

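With scaling by library size only, the median log2 fold change of the faint CUTs was 1.15 and 288 were called higher, and over all features 2962 were called higher and 155 lower. Calls higher were then 95% of all calls, against 52.4% with TMM and 63.1% with TMM over ORFs (1186 higher, 695 lower). The median of all features moved to 0.46, and the faint CUTs lay 0.69 above that median under each of the 3 scalings, with 365 of 426 above it. On TMM-scaled CPM the ratio of summed levels was 1.71. A limit of 1 CPM took 214 CUTs, with 46 at 2 CPM or more in *rrp4-G226D*. Of the 214, 70 were called higher, where 12.3% of all features were. A limit of 3 CPM gave 356 at 2 CPM or more and 1 called lower (CUT305). A floor of 15 counts added 1 called lower (CUT550). Chosen in replicate number 1 and measured in the other 4 libraries, 104 were called higher, and numbers 2 and 3 gave 1 called lower each. With a floor of 20 counts in those 4 libraries, added after seeing the data, 107, 118 and 126 were called higher, and 0, 1 and 1 lower. With no floor there, also added later, 106, 119 and 118 were called higher, and 0, 1 and 1 lower. DESeq2 called 119 of the 426 higher, all among edgeR's 167. Here and in the next paragraph, counts of calls without a share over all features show only how the count moved with the setting.

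Leaving out each library in turn gave medians of 0.62 to 0.76, 120 to 156 faint CUTs called higher and 0 to 2 called lower, 221 to 236 at 2 CPM or more, ratios of 2.29 to 2.39, and 889 to 957 features called higher and 840 to 940 lower. With the replicate number as a block, 160 faint CUTs were called higher. Deviations of same-numbered libraries correlated at 0.025, 0.080 and −0.059, and those of differently numbered libraries at −0.122 to 0.105. These values show no pairing by number, but with 3 replicates they cannot exclude it. For the 34 named members, 396 of 450 alternative values moved by less than the spread between replicates, 54 moved by more, and 0 of the called ones changed sign. Depth limits the faintest CUTs: with 4 to 14 *RRP4* counts, fold changes are imprecise.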
